A study of Mus musculus with 18 samples.

Results

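The genes described here are 43 components of homologous recombination and the Fanconi pathway, together with the checkpoint kinases, PARP enzymes and end-joining factors that work beside them. They were taken by gene symbol from a given list, and all 43 were found among the 35275 genes of the read-count table. All 43 also passed the filter on low counts that left 15207 genes for testing. In the 18 libraries the counts of these genes ran from 34 to 4726 reads per culture.

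RNA-seq was performed on 6 cell lines derived from malignant peripheral nerve sheath tumors (MPNSTs), each line from its own tumor, with 3 cultures per line. The tumors were raised in wild-type 129 Sv/Jae mice, whose age is not given in the sources used here. An adenovirus with CMV-driven Cas9 and guide RNAs was injected into the sciatic nerve. In 3 lines the guides targeted *Nf1* and p53 (*Nf1*/*p53* dKO), and in the other 3 *Nf1* and *Cdkn2a*, the locus of p16 and p19 (*Nf1*/*Cdkn2a* dKO). All lines therefore share the *Nf1* knockout, all were grown in the same serum-containing medium without treatment, and no unedited line is among the samples. Whether a line is 1 clone of edited cells is not given in the sources used here.

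Depth was 19560535 to 28312207 counts per library, and the 3 cultures of a line were summed, so that n = 3 lines per genotype. Levels are CPM (counts scaled by the library total) scaled with edgeR's TMM factors, which adjust each line's total for differences in composition. *Trp53* stood at 94.1, 67.5 and 58.7 CPM in *Nf1*/*p53* dKO lines 1 to 3, and in *Nf1*/*Cdkn2a* dKO lines 1 to 3 at 247, 246 and 185 CPM (log2 fold change 1.62, SE 0.23; edgeR adjusted p = 0.0361, and 0.0436 to 0.124 in the fits without 1 line, under 0.05 only without *Nf1*/*p53* dKO line 1). *Nf1*, targeted in all lines, was at 70.0, 33.5 and 27.7 CPM against 12.7, 38.3 and 16.2 CPM. *Cdkn2a* was at 363, 279 and 42.9 CPM against 169, 391.6 and 285 CPM (log2 fold change 0.30; edgeR adjusted p = 0.830), and the lines of the genotypes overlapped for both genes. Small Cas9 deletions need not lower the RNA, so the levels of *Nf1* and *Cdkn2a* do not check the labels. The labels call the cells mesenchymal, and the 8 mesenchymal markers summed to 8826 to 23516 CPM. Schwann cell markers summed to 1.52 to 75.5 CPM and leukocyte markers to 3.69 to 8.02 CPM, and *Sox10*, a defining gene of Schwann cells, was at most 0.099 CPM.

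Homologous recombination repairs a broken DNA duplex by copying the intact sister chromatid, and is therefore used mainly in S and G2 phase. Nucleases resect the broken ends, BRCA1 and BRCA2 with their partners prepare the exposed strand for pairing, and RAD54 proteins, helicases and nucleases carry the joint molecules to completion. The Fanconi core complex ubiquitinates FANCD2 and FANCI at crosslinked DNA, which passes crosslink repair on to the same recombination machinery. End joining by Ku, DNA-PKcs and ligase IV competes with it for the same ends, and many genes of recombination are transcribed together with the replication genes under E2F control.

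The mean level of most of the 43 genes was lower in the *Nf1*/*Cdkn2a* dKO lines, but no single gene passed the test. The fitted log2 fold change (*Nf1*/*Cdkn2a* dKO minus *Nf1*/*p53* dKO) was below 0 for 35 genes and above 0 for 8, or 81.4% below 0 where 51.8% of all genes tested were. Its median was -0.35 over the 43 genes and -0.02 over all 15207. The quasi-likelihood test of edgeR, adjusted over all genes by the Benjamini-Hochberg method, called 0 of the 43, beside 1.8% of all genes (1.16% lower and 0.638% higher), and the lowest adjusted p was 0.0850, for *Xrcc6*. An unadjusted p under 0.05 was obtained for 10 genes, all lower, which is 23.3% of the list. That count was 6, 4 and 6 without *Nf1*/*Cdkn2a* dKO line 1, 2 or 3, and 8 to 12 without 1 of the other lines. Over all genes the share was 22.4% in either direction, 12.5% lower and 9.81% higher.

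Full separation of the genotypes was seen for 14 genes, again all lower, or 32.6% of the list beside 31.4% of all genes in either direction and 16.6% lower. DESeq2 on the same 6 lines called 5 of the 43, all lower, namely *Fancg*, *Fanci*, *Xrcc6*, *Rad54b* and *Brip1*, beside 8.63% of 23859 genes. It was run on every gene with any count, a wider set than the 15207, so its shares are not like those of edgeR. The share of DESeq2 calls among the 15207 alone was not computed. limma-voom, fitted to 18 cultures and treating the line as random, called 4, namely *Xrcc6*, *Fanci*, *Brip1* and *Parp1*, beside 16.6% of 13110 genes. With the 18 cultures taken as separate samples, edgeR and DESeq2 each called 27, beside 46.5% of 13110 genes and 30.1% of 23859. In these last fits the cultures of 1 line count as independent, which they are not. Since the RNA comes from whole cultures, fewer cells in S or G2 phase and less RNA per cell cannot be told apart.

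**Figure D1:**
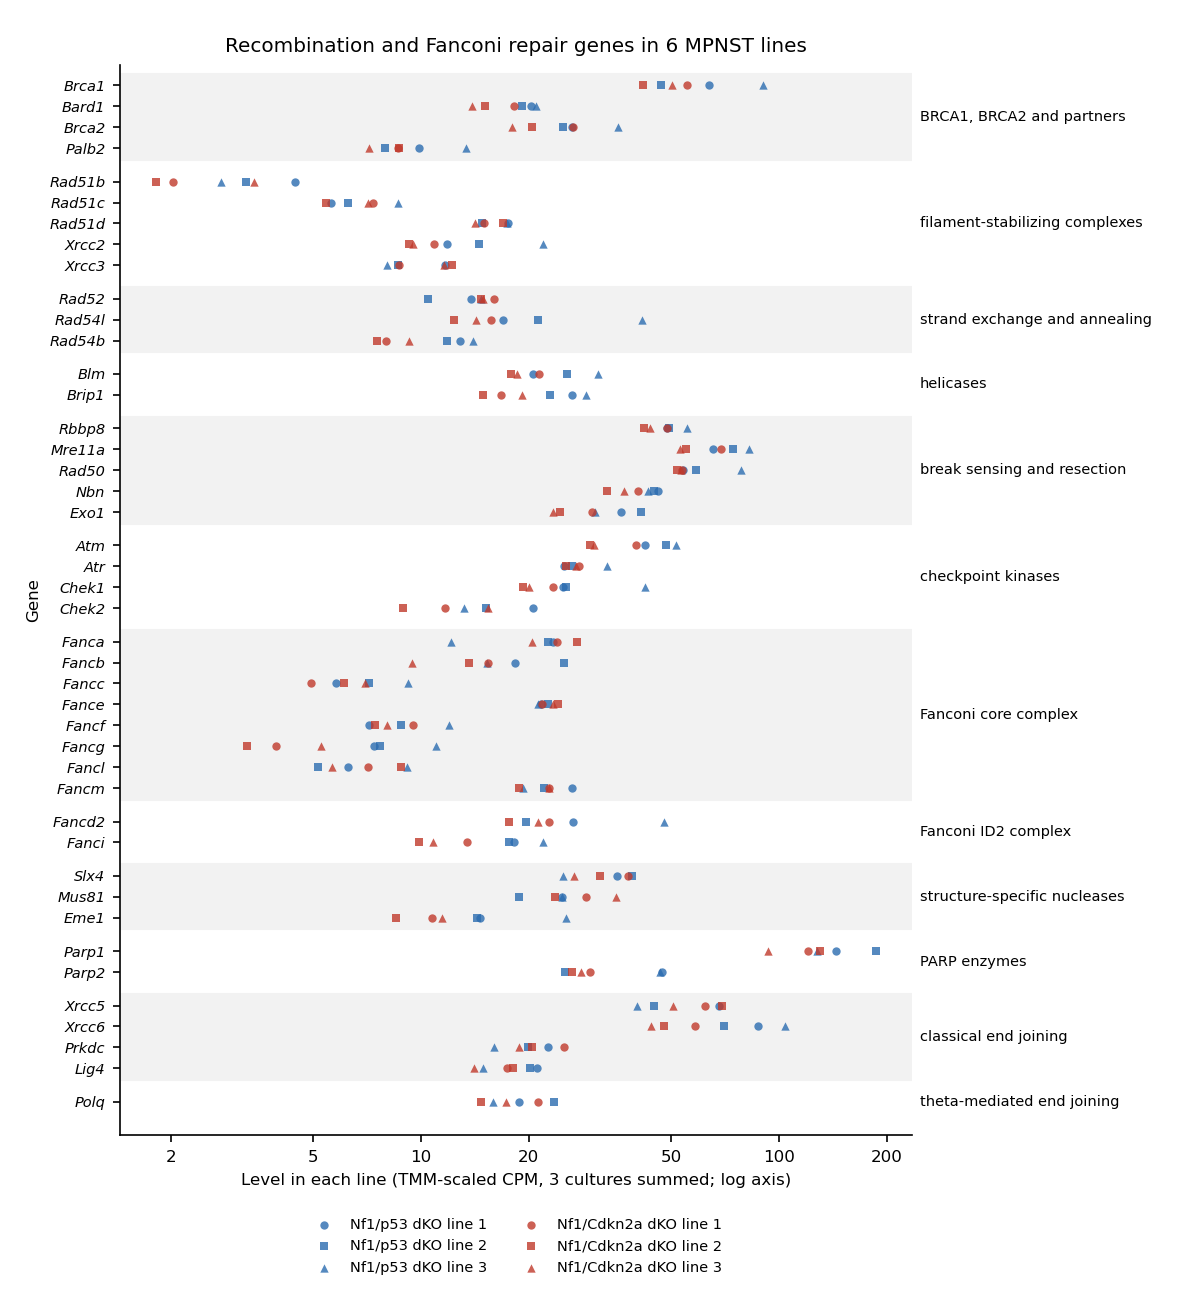
Level of each of the 43 genes in each of the 6 lines, in TMM-scaled CPM on a log axis. Rows are genes grouped by role, blue marks are the 3 *Nf1*/*p53* dKO lines and red marks the 3 *Nf1*/*Cdkn2a* dKO lines. Blue and red marks are fully apart for 14 genes, among them *Xrcc6*, *Fanci*, *Fancg* and *Brip1*, and mixed for the other 29.

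**Figure D2:**
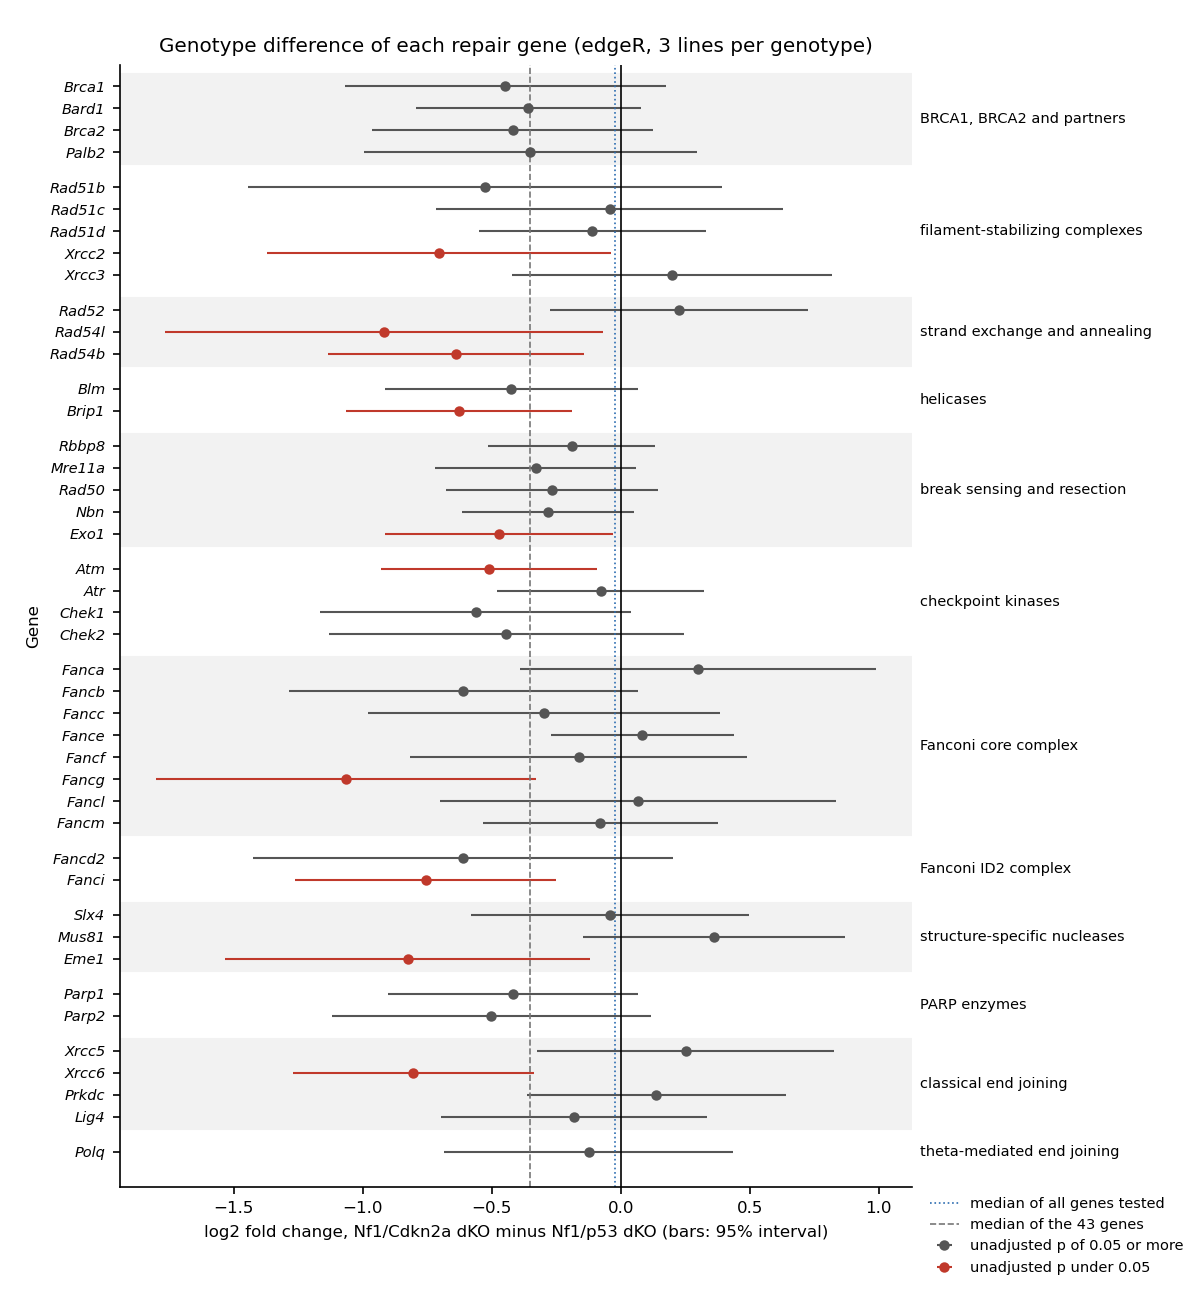
Fitted log2 fold change of each gene with its 95% interval, from edgeR on 3 lines per genotype. The interval lies below 0 for 10 genes, drawn in red, and above 0 for none. The dashed line marks the median of the 43 genes at -0.35 and the dotted line that of all genes at -0.02.

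*Brca1* encodes a ubiquitin ligase that promotes recombination at a break, *Bard1* its obligate partner, *Brca2* a mediator of strand exchange and *Palb2* the bridge between BRCA1 and BRCA2. *Brca1* was at 63.6, 46.8 and 90.6 CPM in *Nf1*/*p53* dKO lines 1 to 3, against 55.3, 41.8 and 50.3 CPM in *Nf1*/*Cdkn2a* dKO lines 1 to 3. Levels below are given in the same order of lines and genotypes. *Bard1* was at 20.4, 19.2 and 20.9 CPM against 18.2, 15.1 and 13.9 CPM. *Bard1* was the one gene of these 4 whose genotypes did not overlap. *Brca2* was at 26.5, 24.9 and 35.5 CPM against 26.6, 20.4 and 18 CPM, and *Palb2* at 9.87, 7.93 and 13.4 CPM against 8.63, 8.68 and 7.15 CPM. *Nf1*/*p53* dKO line 3 was the highest line for each of the 4. The log2 fold changes were between -0.45 for *Brca1* and -0.35 for *Palb2*, and every 95% interval included 0. Without *Nf1*/*p53* dKO line 3, that of *Brca1* was -0.16, that of *Brca2* -0.24 and that of *Palb2* -0.12.

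Filaments on the exposed strand are stabilized by 2 complexes, and *Rad51b*, *Rad51c*, *Rad51d* and *Xrcc2* encode the one and *Rad51c* and *Xrcc3* the other. *Xrcc2* was at 11.8, 14.5 and 21.9 CPM against 10.9, 9.23 and 9.51 CPM, without overlap (log2 fold change -0.70, SE 0.28; edgeR adjusted p = 0.203). Without *Nf1*/*p53* dKO line 3 that of *Xrcc2* was -0.41. *Rad51b*, the least abundant of the 43 genes per kilobase of exon (0.786 CPM per kb), was at 4.46, 3.24 and 2.75 CPM against 2.02, 1.82 and 3.43 CPM. Its genotypes overlapped through *Nf1*/*Cdkn2a* dKO line 3. *Rad51c* was at 5.62, 6.25 and 8.62 CPM against 7.35, 5.42 and 7.12 CPM, and *Rad51d* at 17.5, 14.8 and 17.4 CPM against 15, 16.9 and 14.1 CPM. *Xrcc3*, the only one of these 5 genes with a log2 fold change above 0 (0.20), was at 11.7, 8.6 and 8.03 CPM against 8.69, 12.2 and 11.6 CPM. The intervals of *Rad51c* (-0.72 to 0.63) and *Rad51d* (-0.55 to 0.33) covered differences in both directions.

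*Rad54l* and *Rad54b* encode motor proteins that help a broken strand pair with its template, and *Rad52* a strand-annealing protein. *Rad54l* was at 17.0, 21.3 and 41.6 CPM against 15.7, 12.3 and 14.2 CPM (log2 fold change -0.92, SE 0.35; edgeR adjusted p = 0.195). *Nf1*/*p53* dKO line 3 stood far above the others, and without it the log2 fold change of *Rad54l* was -0.44. *Rad54b* was at 12.8, 11.8 and 14.0 CPM against 8.01, 7.56 and 9.26 CPM (log2 fold change -0.64, SE 0.21; edgeR adjusted p = 0.144), with the 3 lines of each genotype close together. *Rad52* was at 13.8, 10.4 and 14.7 CPM against 16, 14.7 and 14.9 CPM, with a log2 fold change of 0.23 and overlapping lines. Of the exon bases of *Rad54b*, 35.8% are shared with *Fsbp* on the same strand, and of those of *Rad54l*, 15.4% with *Lrrc41* on the opposite strand. Whether counting used strand is not given in the sources used here, so reads in the stretch of *Rad54l* and *Lrrc41* may belong to either gene. Those in the stretch of *Rad54b* and *Fsbp* may do so whatever the strand setting.

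*Brip1* encodes the helicase partner of BRCA1 (also called FANCJ) and *Blm* the helicase that dissolves joined duplexes. *Brip1* was at 26.4, 22.9 and 28.9 CPM against 16.7, 14.9 and 19.1 CPM, without overlap (log2 fold change -0.63, SE 0.18; edgeR adjusted p = 0.117). *Blm* was at 20.6, 25.7 and 31.2 CPM against 21.4, 17.8 and 18.5 CPM, and *Nf1*/*Cdkn2a* dKO line 1 lay within the *Nf1*/*p53* dKO range. The log2 fold change of *Blm* was -0.42, and -0.26 without *Nf1*/*p53* dKO line 3.

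Among the genes of break sensing and resection, *Mre11a*, *Rad50* and *Nbn* encode the complex that binds broken ends, *Rbbp8* the resection factor CtIP and *Exo1* the long-range exonuclease. *Exo1* was at 36.1, 41.3 and 30.6 CPM against 30.1, 24.4 and 23.4 CPM, a narrow separation (log2 fold change -0.47, SE 0.18; edgeR adjusted p = 0.20). *Nbn* was at 46.1, 44.9 and 43.1 CPM against 40.5, 33.1 and 36.8 CPM, also without overlap. *Rad50* was at 53.9, 58.7 and 78.3 CPM against 53.7, 52.0 and 53.1 CPM, its separation rested on 53.9 against 53.7 CPM, and its log2 fold change went from -0.26 to -0.084 without *Nf1*/*p53* dKO line 3. *Rbbp8* and *Mre11a* overlapped, at 42.1 to 55.3 and 53.1 to 82.6 CPM over the 6 lines. All 5 log2 fold changes were below 0, from -0.47 to -0.19.

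The checkpoint kinases ATM and ATR signal a break or a stalled fork, and pass the signal on to CHEK2 and CHEK1. *Atm* was at 42.3, 48.5 and 51.6 CPM against 39.8, 29.6 and 30.5 CPM (log2 fold change -0.51, SE 0.18; edgeR adjusted p = 0.159). *Chek1* was at 24.9, 25.4 and 42.3 CPM against 23.4, 19.3 and 20.1 CPM (log2 fold change -0.56, SE 0.25; edgeR adjusted p = 0.249), and the log2 fold change of *Chek1* was -0.26 without *Nf1*/*p53* dKO line 3, its highest line. Neither gene overlapped between genotypes, though *Nf1*/*Cdkn2a* dKO line 1 came close to the *Nf1*/*p53* dKO lines in both. *Atr* was at 25.1, 26.4 and 33.1 CPM against 27.7, 25.4 and 27.1 CPM (log2 fold change -0.08). *Chek2* was at 20.5, 15.2 and 13.2 CPM against 11.7, 8.91 and 15.4 CPM (log2 fold change -0.44). In *Chek2* the third *Nf1*/*Cdkn2a* dKO line stood above 2 of the *Nf1*/*p53* dKO lines, and its log2 fold change was -0.24 without *Nf1*/*p53* dKO line 1 and -0.26 without *Nf1*/*Cdkn2a* dKO line 2.

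The Fanconi core complex was mixed, with 5 genes below 0 and 3 above. *Fancg* (chr4:43002343-43010506, minus strand, GRCm38), a scaffold subunit of the complex, had the lowest log2 fold change of the 43 genes. It was at 7.37, 7.67 and 11 CPM against 3.93, 3.27 and 5.24 CPM, without overlap, or 0.478 times the *Nf1*/*p53* dKO level in the fit (log2 fold change -1.06, SE 0.31; edgeR adjusted p = 0.115). Its lowest culture still held 54 reads. *Fancb*, an X-linked subunit of the catalytic module, was at 18.3, 25.1 and 15.2 CPM against 15.4, 13.6 and 9.46 CPM (log2 fold change -0.61, and -0.38 without *Nf1*/*p53* dKO line 2), and line 1 of the *Nf1*/*Cdkn2a* dKO reached just above line 3 of the *Nf1*/*p53* dKO. *Fanca*, the binding partner of FANCG, had the highest log2 fold change of the core complex (0.30, SE 0.29). It was at 23.4, 22.7 and 12.1 CPM against 23.9, 27.3 and 20.5 CPM, with *Nf1*/*p53* dKO line 3 the lowest of the 6, and without that line its log2 fold change was 0.06.

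*Fance*, the adaptor to FANCD2, varied least among lines within this complex, at 21.2 to 22.6 CPM against 21.7 to 24.1 CPM. *Fancl*, the ubiquitin ligase subunit, was at 5.15 to 9.15 CPM against 5.63 to 8.81 CPM. *Fancc*, *Fancf* and *Fancm*, the last a DNA translocase that anchors the complex, had log2 fold changes of -0.30, -0.16 and -0.08, and their lines overlapped. Between 10.5% and 16.4% of the exon bases of *Fanca*, *Fancc*, *Fancf* and *Fancl* are shared with a gene on the opposite strand.

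Both genes of the ID2 complex, the substrate of the core complex, had lower means in the *Nf1*/*Cdkn2a* dKO. *Fanci* (chr7:79391929-79450264, plus strand, GRCm38) was at 18.2, 17.6 and 21.9 CPM against 13.5, 9.88 and 10.8 CPM, without overlap (log2 fold change -0.76, SE 0.21; edgeR adjusted p = 0.108). *Fancd2* was at 26.7, 19.6 and 47.9 CPM against 22.7, 17.6 and 21.3 CPM (log2 fold change -0.61, SE 0.34; edgeR adjusted p = 0.336). *Fancd2* overlapped, because *Nf1*/*p53* dKO line 2 was lower than 2 *Nf1*/*Cdkn2a* dKO lines, and without *Nf1*/*p53* dKO line 3 its log2 fold change was -0.17. That of *Fanci* stayed between -0.89 and -0.65 whichever line was left out. Of the exon bases of *Fanci*, 16% are shared with *Polg* on the opposite strand.

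The structure-specific nucleases cut branched DNA, with SLX4 as the scaffold and MUS81 and EME1 as the subunits of 1 heterodimer. *Eme1* (chr11:94644996-94653964, minus strand, GRCm38) was at 14.6, 14.3 and 25.5 CPM against 10.7, 8.51 and 11.4 CPM (log2 fold change -0.83, SE 0.30; edgeR adjusted p = 0.172), without overlap, and without *Nf1*/*p53* dKO line 3 the log2 fold change of *Eme1* was -0.49. *Mus81* had the highest log2 fold change of the 43 genes (0.36, SE 0.21; edgeR adjusted p = 0.362), at 24.7, 18.8 and 24.7 CPM against 28.9, 23.6 and 35.2 CPM. Only *Nf1*/*Cdkn2a* dKO line 2 kept *Mus81* from full separation, and without *Nf1*/*Cdkn2a* dKO line 3 its log2 fold change was 0.21. *Slx4* was at 24.9 to 38.9 CPM over the 6 lines, with a log2 fold change of -0.04. *Mus81* has a processed pseudogene, *Gm48985*, that matches it at 95.1% over 286 bases. *Eme1* shares 8% of its exon bases with *Lrrc59* and 2.72% with *Mrpl27*, both on the opposite strand.

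PARP1 and PARP2 bind DNA nicks and breaks and mark them with poly(ADP-ribose). *Parp1* was the most abundant of the 43 genes per kilobase of exon, at 25.3 CPM per kb on average over the lines. Its level was 144, 187 and 128 CPM against 121, 130 and 93.4 CPM (log2 fold change -0.42, SE 0.20; edgeR adjusted p = 0.281), with a log2 fold change of -0.23 without *Nf1*/*p53* dKO line 2. *Parp2* was at 47.2, 25.3 and 46.5 CPM against 29.6, 26.4 and 28.1 CPM (log2 fold change -0.50). The low second *Nf1*/*p53* dKO line put *Parp2* among the overlapping genes, and without that line its log2 fold change was -0.73.

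In classical end joining, *Xrcc6* (chr15:81987835-82040085, plus strand, GRCm38) and *Xrcc5* (chr1:72307421-72394952, plus strand) encode Ku70 and Ku80, which form a ring on the broken end, *Prkdc* the kinase DNA-PKcs and *Lig4* the ligase. *Xrcc6* was at 87.2, 70.1 and 104 CPM against 58.2, 47.7 and 44.0 CPM, without overlap, or 0.573 times the *Nf1*/*p53* dKO level in the fit, with the lowest adjusted p of the list (log2 fold change -0.80, SE 0.20; edgeR adjusted p = 0.0850). Its partner *Xrcc5* was at 68.1, 44.7 and 40.2 CPM against 62.3, 69.3 and 50.6 CPM (log2 fold change 0.25, SE 0.24; edgeR adjusted p = 0.573), and its log2 fold change was between 0.11 and 0.52 with each line left out. The lines of *Xrcc6* were apart and those of *Xrcc5* mixed, as *Nf1*/*p53* dKO line 1 had the second highest *Xrcc5* level. *Prkdc* (16 to 25.1 CPM), *Lig4* (14.0 to 21.1 CPM) and *Polq*, the polymerase of theta-mediated end joining (14.7 to 23.5 CPM), overlapped, with log2 fold changes of 0.14, -0.18 and -0.12. *Xrcc6* shares 7.69% of its exon bases with *Desi1* on the opposite strand.

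Partner genes were set against each other within each line, as ratios of CPM per kb of exon, for 9 pairs of known partners. *Xrcc5* over *Xrcc6* was 1.37, 1.12 and 0.675 in *Nf1*/*p53* dKO lines 1 to 3, against 1.88, 2.55 and 2.02 (mean 1.05 ± 0.351 against 2.15 ± 0.354, SD, n = 3). *Mus81* over *Eme1* was 1.31, 1.02 and 0.751 against 2.09, 2.15 and 2.38 (mean 1.03 ± 0.279 against 2.20 ± 0.153, SD, n = 3). These were the 2 of 9 pairs whose genotypes did not overlap, and in both the *Nf1*/*Cdkn2a* dKO ratio was the higher in all 3 lines. In both pairs the gene divided by, *Xrcc6* or *Eme1*, was itself lower without overlap, so the ratios are not separate results. Of all single genes 31.4% did not overlap, and the share among other gene pairs was not computed. With 3 lines on each side, the smallest p that an exact permutation test can reach is 0.1. In the other 7 pairs, among them *Brca1* over *Bard1*, *Mre11a* over *Rad50* and *Fancd2* over *Fanci*, the lines of the genotypes overlapped. *Mre11a* over *Rad50* varied least, from 0.905 to 1.16.

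**Figure D3:**
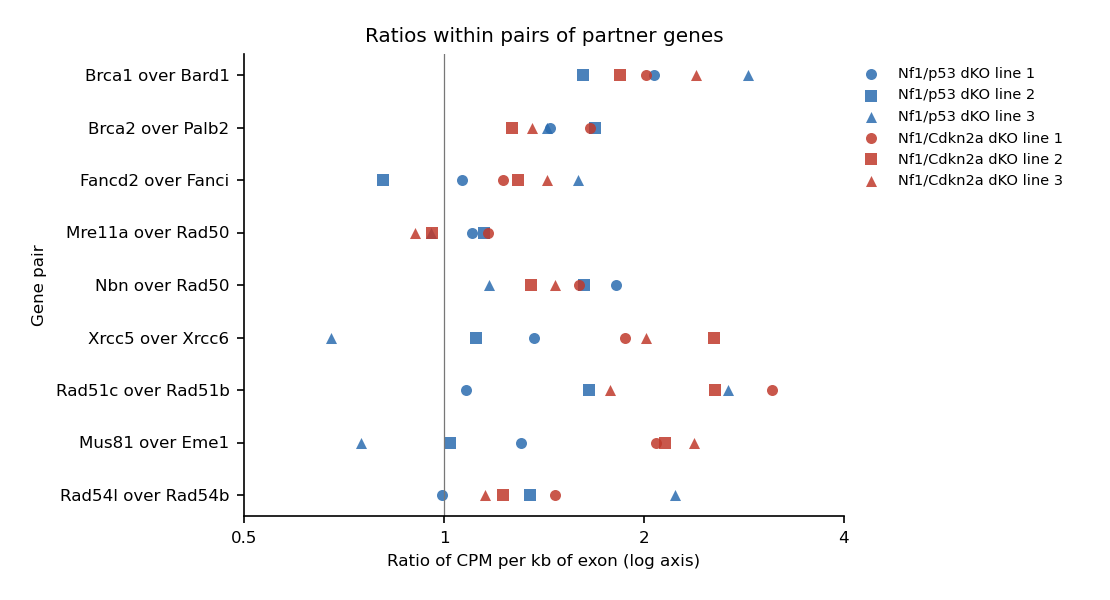
Ratio of CPM per kb of exon within 9 pairs of partner genes, 1 mark per line, on a log axis (blue, *Nf1*/*p53* dKO; red, *Nf1*/*Cdkn2a* dKO). The marks of *Xrcc5* over *Xrcc6* and of *Mus81* over *Eme1* are apart between genotypes, with all red marks to the right at 1.88 or above, and those of the other 7 pairs are mixed.

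The levels of the 43 genes stood apart in 2 lines in particular. *Nf1*/*p53* dKO line 3 was the highest line for 24 of them (55.8%, beside 25.9% of all genes), and *Nf1*/*Cdkn2a* dKO line 2 the lowest for 20 (46.5%, beside 17.9%). The median deviation from the mean of the 6 lines, on the log2 CPM scale, was 0.13, 0.10 and 0.33 in *Nf1*/*p53* dKO lines 1 to 3, against -0.02, -0.25 and -0.16 in the other genotype. The summed level of the 43 genes was 1270, 1244 and 1400 CPM against 1132, 1017 and 988 CPM. By role, the ID2 complex deviated most in *Nf1*/*p53* dKO line 3 (median 0.76), followed by BRCA1, BRCA2 and partners (0.52). The median of classical end joining was below the mean there (-0.28), with *Xrcc5*, *Prkdc* and *Lig4* at -0.44, -0.34 and -0.22 but *Xrcc6* at 0.67. Without *Nf1*/*p53* dKO line 3, 32 of the 43 log2 fold changes were below 0 (74.4%, beside 50.8% of all genes) and their median was -0.24. In that fit 8 genes had an unadjusted p under 0.05 (18.6%, beside 21.6%) and 17 did not overlap (39.5%, beside 43%), where 2 lines against 3 are more easily apart for any gene.

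The spread among the lines of a genotype was described with no test. The coefficient of variation (CV) among the 3 lines had a median over the 43 genes of 20.3% (*Nf1*/*p53* dKO) and 14.2% (*Nf1*/*Cdkn2a* dKO), beside 25.2% and 18% over all genes. It was the higher in the *Nf1*/*p53* dKO for 29 of the 43 genes (67.4%, beside 61.7% of all genes). Differences between lines took a median of 86.5% of the sum of squares of log2 CPM among the 9 cultures of the *Nf1*/*p53* dKO. Among those of the *Nf1*/*Cdkn2a* dKO the median was 57.5%. Such a share is above 0 even where lines do not differ, and it was not computed over all genes.

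Genes that mark replicating cells were also highest in *Nf1*/*p53* dKO line 3 by their sums and medians, though not each gene by itself. The lowest S-phase sum was that of *Nf1*/*Cdkn2a* dKO line 3 and the lowest G2/M median that of *Nf1*/*Cdkn2a* dKO line 2. The 30 S-phase genes, none of them among the 43, summed to 3145, 3025 and 3914 CPM against 2907, 2555 and 2357 CPM. Of these, 29 had a log2 fold change below 0 (median -0.45), 13 an unadjusted p under 0.05 and 0 passed the adjusted test. Without *Nf1*/*p53* dKO line 3 their median was -0.27. They ran from *Rfc3*, a clamp loader subunit (-1.01), to *Rrm2*, the small subunit of ribonucleotide reductase (0.17). All 12 genes of G2 and M phase were below 0 (median -0.34), from *Cenpe* (-0.80) to *Cdk1* (-0.01), but their median was -0.05 without *Nf1*/*p53* dKO line 3. The summed level of the 43 repair genes was 40.4%, 41.1% and 35.8% of the S-phase sum in *Nf1*/*p53* dKO lines 1 to 3, against 39.0%, 39.8% and 41.9%, and these shares overlapped.

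When the lines were scaled to their summed S-phase counts instead of TMM, an alternative chosen after seeing the data, the median log2 fold change of all genes moved from -0.02 to 0.33. That of the 43 genes was then 0.03, with 21 genes below 0 (48.8%, beside 28.3% of all genes), 3 with an unadjusted p under 0.05 (6.98%, beside 27.8%) and 0 called (beside 1.26%). Relative to the median of all genes, the 43 stood at -0.31 on that scale and at -0.33 on the TMM scale. The part of replication in the levels of the repair genes was not tested.

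**Figure D4:**
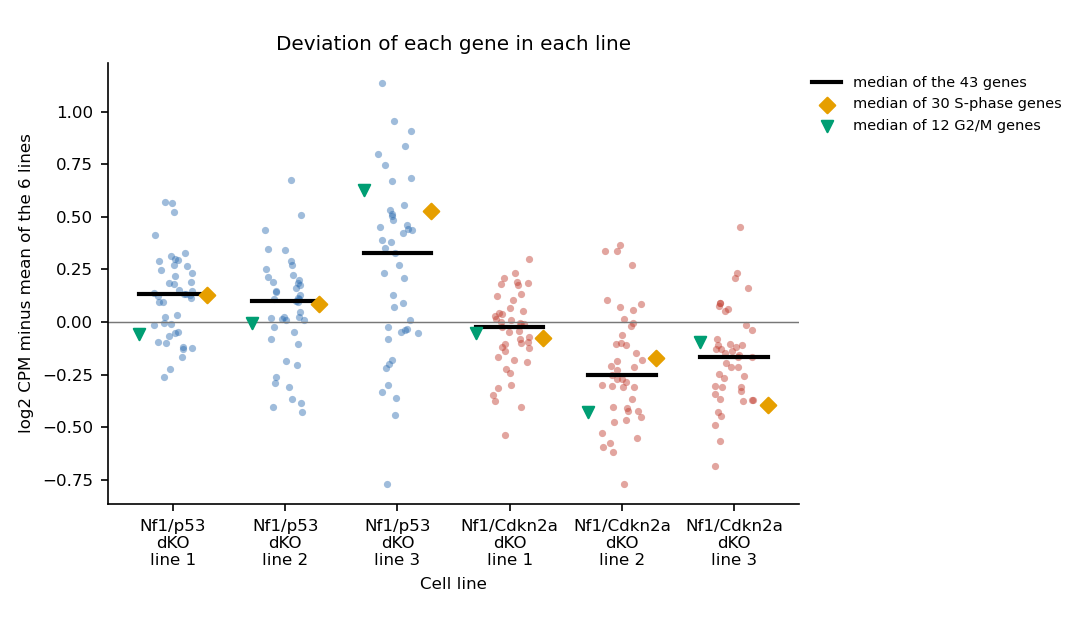
Deviation of each of the 43 genes (dots) from its mean over the 6 lines, in log2 CPM, for each line on the horizontal axis. Black bars are medians of the 43 genes, orange diamonds of 30 S-phase genes and green triangles of 12 G2/M genes; all 3 are highest in *Nf1*/*p53* dKO line 3, at 0.33, 0.53 and 0.63.

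Further genes of the same pathways were taken from lists outside the 43. Of 40 further recombination and Fanconi genes, 28 had a log2 fold change below 0 (median -0.21, and -0.12 without *Nf1*/*p53* dKO line 3). An unadjusted p under 0.05 was obtained for 13 (32.5%, beside 22.4% of all genes), 11 lower and 2 higher. The genotypes did not overlap for 19 (47.5%, beside 31.4%), 15 lower and 4 higher. In the adjusted test 1 was called and it was higher. That gene was *Ercc1*, which with *Ercc4* (XPF) forms the nuclease that unhooks crosslinks. *Ercc1* was at 82.7, 79.3 and 72.2 CPM against 192, 174 and 172 CPM (log2 fold change 1.20, SE 0.13; edgeR adjusted p = 0.0210). Every *Nf1*/*Cdkn2a* dKO line was above the highest *Nf1*/*p53* dKO line. Its adjusted p was 0.0380 to 0.112 when each line was left out in turn, over 0.05 without *Nf1*/*p53* dKO line 2 or any of the *Nf1*/*Cdkn2a* dKO lines. *Recql4*, a helicase of replication and resection, was the lowest of the list, at 34.7, 25.7 and 53.9 CPM against 18, 13.0 and 12.7 CPM (log2 fold change -1.39, SE 0.31; edgeR adjusted p = 0.0739).

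Of 21 further genes of break signalling and checkpoints, 14 were below 0 (median -0.22, but -0.078 without *Nf1*/*p53* dKO line 1 and -0.14 without line 3) and 0 were called, with 3 at an unadjusted p under 0.05. They ran from *Mdc1*, the reader of phosphorylated H2AX (-0.68), to the gene listed as *1110034G24Rik*, which is *Shld1* of the shieldin complex (0.52). All 7 mismatch repair genes were below 0 (median -0.40), 4 of them with an unadjusted p under 0.05 and 0 called. The highest was *Mlh3* (-0.10).

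**Figure D5:**
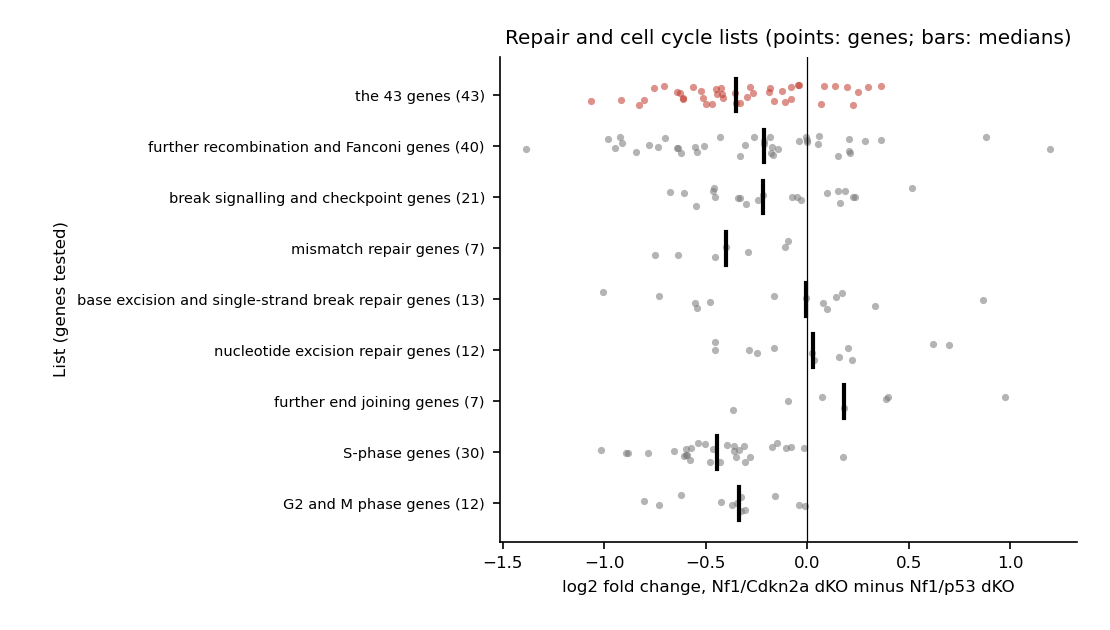
Fitted log2 fold change of each gene (points) of the 43 and of 8 further lists, with the median of each list as a black bar. Medians are at -0.35 for the 43 genes, -0.45 for S-phase genes, -0.40 for mismatch repair genes and 0.03 for nucleotide excision repair genes. The last list is without *Ercc1* and *Ercc4*, which are among the further recombination and Fanconi genes.

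The promoters were compared because E2F factors, which bind the letters TTTCCCGC, TTTCGCGC, TTTGCCGC or TTTGGCGC, are known to drive many replication and recombination genes. RefSeq promoters of GRCm38.p6, from 250 bases before to 50 after the gene's start, were matched by symbol for 34 of the 43 genes. This start is RefSeq's and need not be the end of the gene span printed above. It lay over 100 bases from the outermost GENCODE start for 10 of the 34, among them *Fancg* (205 bases inside the span), *Xrcc6* (28.5 kb inside) and *Fancc* (65.5 kb inside). These E2F letters stood on either strand in 6 of the 34 (17.6%), beside 2.6% of 27025 genes with a promoter in the same table. All 6 had a log2 fold change below 0 (median -0.43), as had 21 of the 28 without the letters (median -0.31). The CCAAT box, read as CCAAT or ATTGG, stood in 19 of 34 (55.9%, beside 41.1%), and the CHR element of G2/M genes, read as TTTGAA or TTCAAA, in 4 (11.8%, beside 20.2%). Neighboring motifs can share an edge base. A match is a description of these letters and not a site of binding.

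The 24 bases around each E2F match are shown for the 6 genes, on the strand of the gene, with the motif in capitals. *Rad51c* has a match in the window of each of 2 annotated starts.
Bard1 (chr1:71103166-71103189, minus strand): ccgctcagTTTCCCGCtcaggaag
Brca2 (chr5:150522445-150522468, plus strand): aggccacaGCGGGAAAcagacaca
Chek2 (chr5:110839823-110839846, plus strand): gattagccGCGGGAAAccaagacg
Fancg (chr4:43010338-43010361, minus strand): cttttcagTTTCCCGCggaaccgt
Rad51c, first window (chr11:87404480-87404503, minus strand): tccagcgcTTTCGCGCctcttgct
Rad51c, second window (chr11:87404944-87404967, minus strand): ccgcgaggGCGGGAAAagcaaggg
Xrcc6 (chr15:82016315-82016338, plus strand): gggtggaaGCGGGAAAtgcgagtg
The group holds *Fancg* and *Xrcc6*, the genes with the lowest log2 fold change and the lowest adjusted p, and also *Rad51c*, whose difference was -0.04. The matches of *Fancg*, of *Xrcc6* and of the first *Rad51c* window lie inside the annotated gene spans and not upstream of them.

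The stretch before the start, free of annotated exons, is shown for *Rad54l* and *Fanca*, which lie near the 2 ends of the list at -0.92 and 0.30, with CCAAT letters in capitals.
Rad54l (chr4:116123691-116123839, minus strand): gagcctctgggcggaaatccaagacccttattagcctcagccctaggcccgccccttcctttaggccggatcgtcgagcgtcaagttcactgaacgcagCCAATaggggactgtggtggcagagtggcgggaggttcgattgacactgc
Fanca (chr8:123318577-123318826, minus strand): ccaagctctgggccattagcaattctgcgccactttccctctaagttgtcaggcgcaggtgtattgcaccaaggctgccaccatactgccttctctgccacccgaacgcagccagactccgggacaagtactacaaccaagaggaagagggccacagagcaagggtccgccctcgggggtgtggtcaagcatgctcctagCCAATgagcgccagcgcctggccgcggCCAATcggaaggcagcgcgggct
Both hold a CCAAT box 50 bases before the start, and *Fanca* a further one 23 bases before it, and neither window holds the E2F letters. The 19 genes with a CCAAT box stood at a median of -0.35 on the log2 fold change scale, and the 15 without one at -0.36.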

How the data were processed

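Total RNA from 18 cultures was sequenced, and the authors deposited raw counts, integer reads per gene that are not normalized. The submitters' processing notes name CASAVA, STAR 2.5, DESeq2 1.14.1 and the build GRCm38 (mm10), while the counting tool and its strand setting are not given in the sources used here. Genotype, line and culture of each count column were read from the column name, which matches 1 title.

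The 3 cultures of a line were added up. Genes passed filterByExpr at a minimum count of 10 and a minimum total of 15, and were scaled by TMM and fitted with edgeR 4.0.16 (glmQLFit, glmQLFTest, two-sided, limma 3.58.1, R 4.3.3), with Benjamini-Hochberg adjustment over 15207 genes. CPM, ratios and intervals were computed from these counts, and the steps were tested on simulated data. p-values measure the spread between 3 lines per genotype. The 43 genes, the further lists and the pairs were chosen with earlier results of these data known, as was the rule that every member is named and the 10 with an unadjusted p under 0.05, the ends of the list and the BRCA and filament-stabilizing groups are given per line. Other genes are the highest and lowest of each list (1 is not reported here), and *Ercc4* as the partner of *Ercc1*, *Sox10*, *Krt8*, *Krt18* and genes named for overlap or similarity were chosen after their values were seen. Alternatives were the 18 cultures as samples, limma-voom, DESeq2 1.42.0, other scalings and filters, blocks by number and each line left out. Gene positions and exon lengths come from GENCODE M21 (GRCm38), near copies from BLAST 2.17.0, promoters from RefSeq (GRCm38.p6), and plots from matplotlib 3.10.9 in Python 3.11.15.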

Additional observations from a re-analysis of the deposited data

Results flagged for a closer look

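In 4 of the 86 groups of 9 cultures examined, that is 43 genes in each of 2 genotypes, 1 culture stood apart from the others by Dixon's criterion at 95% for 9 values, which marks about 5% of groups by chance where the 9 values are independent. The 3 cultures of a line are not independent, so that this share need not hold here. *Brca1* was at 66.1 CPM in culture 1 of *Nf1*/*Cdkn2a* dKO line 1, where the next highest culture was at 50.4 CPM. *Rad51d* was at 20.2 CPM in culture 2 of *Nf1*/*Cdkn2a* dKO line 2, above a next value of 15.7 CPM. *Xrcc2* was at 12.4 CPM in culture 2 of *Nf1*/*Cdkn2a* dKO line 1, above 10.4 CPM. *Atm* was at 33.4 CPM in culture 3 of *Nf1*/*p53* dKO line 1, below a next value of 44.5 CPM. Each of these values enters the sum of its line. Culture 1 of *Nf1*/*Cdkn2a* dKO line 1, that of the *Brca1* value, also differed from its sister cultures across the genes of the whole table. Its chi-square per degree of freedom was 26.5 against culture 2 and 29.2 against culture 3. All other pairs of cultures of 1 line were at 3.57 to 13.8.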

How the results depend on the processing

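The 43 genes were called by edgeR on 6 lines in 0 cases under every scaling and filter tried and without any 1 of the lines (range 0 to 0). More were called where cultures or another tool were used, namely 27 with the 18 cultures in edgeR, 27 with the 18 cultures in DESeq2, 4 with limma-voom and 5 with DESeq2 on the 6 lines. Of all genes that each fit tested, 46.5%, 30.1%, 16.6% and 8.63% were called, in the same order. With the 18 cultures in edgeR and DESeq2, 28 and 29 genes had an unadjusted p under 0.05. These are 65.1% and 67.4% of the 43, beside 53.3% of 13110 genes and 35.6% of 23859. With raw total counts 17 had one (39.5%, beside 23.9% of all genes). The median log2 fold change was then -0.49, beside -0.16 over all genes, so that the 43 stood at -0.33 relative to all genes as on the TMM scale. With each line left out, 4 to 12 genes had an unadjusted p under 0.05 (4 without *Nf1*/*Cdkn2a* dKO line 2 and 6 without line 1 or line 3 of that genotype), 32 to 35 were below 0, 16 to 21 did not overlap, and the median was between -0.40 and -0.24. Over all genes 16.8% to 21.6% had an unadjusted p under 0.05 in these fits (9.3% to 27.9% of the 43), and 38.4% to 43% did not overlap (37.2% to 48.8% of the 43). With an arm of 2 lines there are fewer samples, and fewer genes were called among all genes too.

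The line and culture numbers did not pair the samples, since same-numbered lines had correlations of -0.13 to -0.08 in their deviations and same-numbered cultures of -0.05 to 0.09. With the line number as a replicate block, edgeR called 0 of the 43 and 0 of all genes, 7 of the 43 and 2740 of all had an unadjusted p under 0.05, and 35 were below 0. With the culture number as a replicate block on 18 cultures, 25 were called, beside 43.3% of 13110 genes. An unadjusted p under 0.05 was obtained there for 27 (62.8% of the 43, beside 50.8%).

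In the 6 fits that lack 1 line, 36 of the 43 genes had 1 sign throughout and 7 did not. Scaling to S-phase counts, an alternative chosen after seeing the data, gave 21 genes below 0, 3 with an unadjusted p under 0.05 and a median of 0.027. On that scale the log2 fold changes of *Palb2* (0.034), *Rad51c* (0.34), *Rad51d* (0.25), *Rbbp8* (0.17), *Mre11a* (0.027), *Rad50* (0.12), *Nbn* (0.069), *Atr* (0.30), *Fancc* (0.10), *Fancf* (0.22), *Fancm* (0.27), *Slx4* (0.27), *Lig4* (0.15), *Polq* (0.20), *Aplf* (0.020), *Mlh3* (0.24) and *Cdk1* (0.39) were above 0, while all genes had a median of 0.33. With raw total counts those of *Fance* (-0.049) and *Fancl* (-0.069) were below 0. With each line left out, log2 fold changes that took either sign ranged from -0.17 to 0.16 for *Rad51c*, -0.15 to 0.057 for *Atr*, -0.32 to 0.065 for *Fancf*, -0.10 to 0.34 for *Fancl*, -0.18 to 0.051 for *Fancm*, -0.20 to 0.10 for *Slx4*, -0.27 to 0.050 for *Polq*, -0.42 to 0.26 for *Mlh3*, -0.28 to 0.16 for *Cdk1* and -0.18 to 0.81 for *Cdkn2a*.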

Other observations

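Genes of excision repair had log2 fold changes in both directions. The nucleotide excision repair list leaves out *Ercc1* (1.20, called) and *Ercc4* (0.88, edgeR adjusted p = 0.0785). Both were placed with the further recombination and Fanconi genes, so the counts and median of the 12 genes are without this pair. Of 12 nucleotide excision repair genes, 7 had a log2 fold change above 0 (median 0.03, but -0.10 without *Nf1*/*p53* dKO line 2 and -0.11 with raw total counts) and 0 were called by edgeR, with 2 at an unadjusted p under 0.05. They ran from *Ercc6*, the transcription-coupled repair factor CSB (-0.45, and -0.13 without *Nf1*/*p53* dKO line 1), to *Ercc5*, the XPG nuclease (0.70). Of 13 base excision and single-strand break repair genes, 7 were below 0 (median -0.01, and -0.12 to 0.089 with each line left out), from *Ung*, the uracil glycosylase (-1.01, edgeR adjusted p = 0.148), to *Parp3* (0.87, edgeR adjusted p = 0.109). edgeR called 0 of them, with 3 at an unadjusted p under 0.05.

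Of 7 further end-joining genes, 5 were above 0 (median 0.18, and 0.11 without *Nf1*/*p53* dKO line 3) and 0 were called by edgeR, with 1 at an unadjusted p under 0.05. That gene was *Polm*, a polymerase of end joining, at 31.2, 24.2 and 20.6 CPM in *Nf1*/*p53* dKO lines 1 to 3 against 47.1, 45 and 57.3 CPM in the other genotype (log2 fold change 0.98, SE 0.20; edgeR adjusted p = 0.0637). The lowest was *Aplf* (-0.37). Endothelial markers summed to 0.641 to 2.02 CPM and epithelial markers to 2.67 to 739 CPM, the latter mostly from the keratins *Krt8* and *Krt18* in the lines other than *Nf1*/*p53* dKO line 3 and highest in *Nf1*/*p53* dKO line 2 and *Nf1*/*Cdkn2a* dKO line 1, while *Epcam* was at most 0.764 CPM. Their part in the levels of the repair genes was not tested.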
